A study of Homo sapiens with 6 samples.

Results

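The genes described here are the matrix metalloproteinases (MMPs), the ADAM and ADAMTS proteases and the tissue inhibitors of metalloproteinases (TIMPs). They were taken from a table of 61541 human genes as every gene whose symbol is MMP, ADAM, ADAMTS or TIMP followed only by a number, without ADAM10 and ADAM17, which gave 65 genes: 22 MMP, 20 ADAM, 19 ADAMTS and 4 TIMP genes. Bulk RNA-seq was made from a pair of human breast cancer lines, in 3 libraries per line. MDA231-LN, labelled MDA-MB-231-D3H2LN, is a commercial subline of MDA-MB-231 that carries luciferase and was isolated from a lymph node metastasis in mice, and parental MDA-MB-231 is a mesenchymal-like line that lacks oestrogen receptor, progesterone receptor and HER2 amplification. Both were grown in the same high-glucose DMEM with 10% serum, with no treatment named in the labels. Each line is a single cell line, and no label states whether the libraries are separate cultures: p-values rest on a spread among libraries that may be only technical.

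Total counts were 18843076, 17661542 and 18882719 fragments in MDA231-LN and 16831047, 16461578 and 19171017 in parental cells, and no library stood apart in these totals. Genes with a count numbered 19839 to 20024 in the MDA231-LN libraries and 17962 to 18196 in the parental ones. The bearing of that difference on genes at 0 in parental cells was not tested. The summed level of VIM, CD44, EGFR, CAV1 and AXL, markers of mesenchymal-like breast cancer lines, was 5257 to 5556 CPM (the count scaled to a fixed library size) in MDA231-LN and 3654 to 3844 CPM in parental cells. Of these, EGFR went the other way and fell 1.93-fold without overlap (edgeR adjusted p = 3.82e-13). CD44, VIM and AXL rose 1.89-fold, 1.83-fold and 1.66-fold, and CAV1 rose 1.10-fold. The summed level of ESR1, PGR, ERBB2, GATA3 and EPCAM was 118 to 127 CPM in MDA231-LN and 117 to 129 CPM in parental cells. Most of that sum was ERBB2, at 89.8 CPM and 90.4 CPM on average. ERBB2, GATA3 and EPCAM were not called, and PGR was not tested. ESR1 rose without overlap from low counts, 54 in MDA231-LN against 9 in parental cells (edgeR adjusted p = 0.00403). Every parental library was below the filter on low counts described below for ESR1. Markers of other cell types were low: the leukocyte marker PTPRC was at 0.443 to 0.514 CPM in MDA231-LN and 0.305 to 0.697 CPM in parental cells, and the T cell marker CD3E was at 0 in all libraries. The endothelial sum (PECAM1, CDH5, KDR, LYVE1, PROX1) was 13.3 to 14.2 CPM in MDA231-LN and 9.0 to 14.6 CPM in parental cells, with LYVE1 not measured. Within that sum PROX1 rose to 3.16 to 4.63 CPM in MDA231-LN, against 0.0535 to 0.305 CPM in parental cells (edgeR adjusted p = 8.01e-09), and KDR fell 1.90-fold with overlapping libraries (edgeR adjusted p = 0.0238). For PROX1 too, every parental library was below that filter, so its entry to the test already required a difference. The fibroblast sum (PDGFRA, DCN, LUM, COL1A1, COL3A1) was higher in every MDA231-LN library, at 16.6 to 20.0 CPM against 9.13 to 14.4 CPM, with PDGFRA at 0 in all libraries. Its part in the results on matrix proteases was not tested.

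These enzymes belong to the metzincins, zinc proteases that are made as inactive precursors and cut proteins outside the cell or at its surface. MMPs degrade collagens, fibronectin and basement membrane, ADAMs are membrane-anchored and shed the outer parts of growth factors and receptors, and ADAMTS proteases are secreted, carry thrombospondin repeats and process proteoglycans, procollagens and other matrix proteins. TIMPs bind the active site and block it, and TIMP2 together with MMP14 also brings pro-MMP2 to the cell surface, where it is activated. In breast cancer these genes are studied for their part in invasion through matrix and in the remodelling of stroma.

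Not every gene could be read out. Counts were made over whole gene bodies, introns included, without regard to strand, and a fragment that touched more than 1 annotated gene was dropped. A gene that lies inside another is therefore at or near 0 whatever its RNA level. With at least 90% of its exonic bases inside another gene taken as not measured, 10 of the 65 genes were not measured. TIMP1 lies inside SYN1, TIMP3 inside SYN3 and TIMP4 inside SYN2, which leaves TIMP2 as the inhibitor that could be read. MMP1, the interstitial collagenase, and MMP10 lie inside the pseudogene WTAPP1, and MMP24 lies inside MMP24OS. All exonic bases of ADAM7 and 98.3% of those of ADAM28 lie in ADAM7-AS1, and those of ADAM20 and ADAM21 lie in a gene with no symbol or, for ADAM21, in that gene and ADAM20P1. The host genes themselves held few fragments: over the 3 libraries of a line SYN1 had 9 in MDA231-LN and 0 in parental cells, SYN3 had 49 and 29, SYN2 had 94 and 192, and WTAPP1 had 10 and 0. No level of an inhibitor or collagenase nested in them can be read from these values. Genes kept as measured can be partly covered too, such as MMP9 (31.8% of exonic bases), ADAMTS17 (29.4%), MMP19 (17.4%) and TIMP2 (14.1%).

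**Figure D1:**
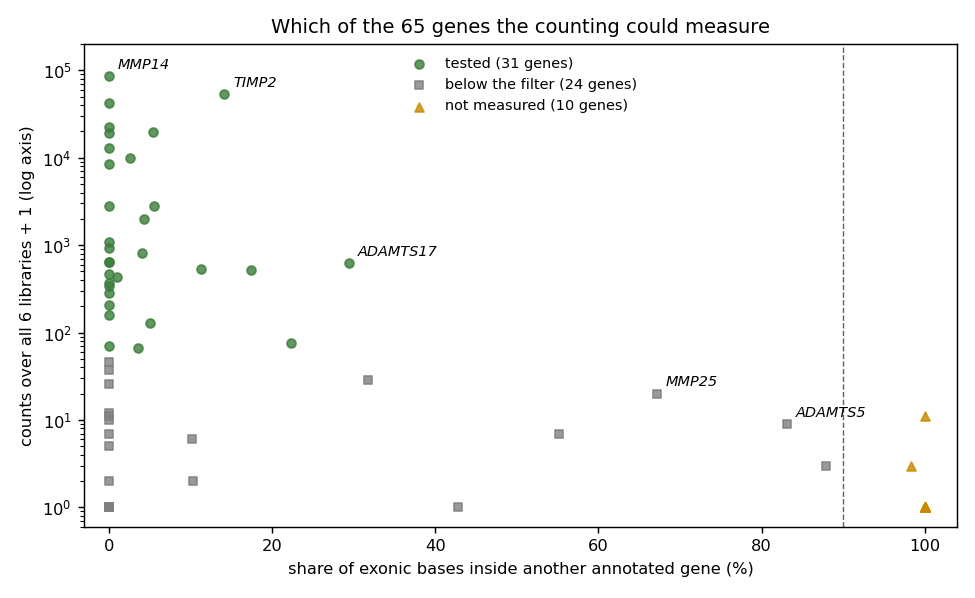
Share of each gene's exonic bases that lies inside another annotated gene (x axis, percent) against its counts over the 6 libraries plus 1 (y axis, log scale), for the 65 genes. The 10 genes to the right of the dashed line at 90% all sit near the bottom of the plot, whereas the genes to its left span the whole range.

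Of the other 55 genes, 24 fell below the filter on low counts, which asked for about 0.548 CPM in at least 3 libraries, and 31 were tested: 9 MMP, 9 ADAM and 12 ADAMTS genes and TIMP2. Among the 24, ADAM2, ADAM30, ADAM33, ADAMTS10, MMP7, MMP12, MMP20 and MMP27 had no count in any library, which allows up to 0.0526 CPM in MDA231-LN and 0.059 CPM in parental cells (3 counts over the 3 libraries of a line, for counting error only). The other 16 had at most 18 counts in a library. ADAMTS8, a secreted protease of the aggrecan- and versican-cleaving group, had 10, 9 and 18 counts in MDA231-LN and 3, 3 and 2 in parental cells. MMP25, a membrane-anchored MMP best known from neutrophils, had 9, 3 and 7 counts in MDA231-LN and 0 in each parental library, at least 5.65-fold higher, and 67.1% of its exon sequence is shared with another gene. MMP9, the gelatinase B that cleaves denatured collagen and basement membrane, had 2, 1 and 0 counts in MDA231-LN and 11, 14 and 0 in parental cells. Parental replicate 3 thus lay with the MDA231-LN libraries, and the pooled ratio, 9.34-fold lower in MDA231-LN with an exact 95% counting interval of 2.85 to 48.3, rested on the other parental libraries. ADAM5 had 1 count in MDA231-LN and 8 in parental cells, all in parental replicate 3. These genes were not tested here. Under some alternative filters and with 1 library left out, MMP9 was called lower and MMP25 and ADAMTS8 higher (edgeR or DESeq2 adjusted p of 0.000806 to 0.033).

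Among the 31 tested genes, 14 rose and 13 fell in MDA231-LN, and 4 were not called (ADAMTS7, ADAMTS17, ADAM32 and MMP19). Calls are at an adjusted p under 0.05 in edgeR's quasi-likelihood test with Benjamini-Hochberg adjustment over all 14176 genes tested, of which 62.8% were called, 31.6% higher and 31.2% lower. That split depended on scaling: upper-quartile scaling called 5415 genes higher and 3603 lower, with 14 and 13 of the genes described here. Library spread was small, with a common biological coefficient of variation of 0.0691. At least 2-fold changes were called for 12 genes that rose and 7 that fell, beside 13% and 7.53% of all genes tested, and 6 of those that rose are among the genes named next. In 25 of the 31 the libraries of the lines did not overlap, beside 66.6% of all genes. The median log2 fold change was 0.16 over the 31 and 0.02 over all genes, and the median absolute log2 fold change was 1.23 and 0.44. Some of these genes could enter the test only because one line was high: ADAM12, ADAMTS13, ADAMTS14, ADAMTS20, MMP3 and MMP13 were above the filter level in every library of MDA231-LN but not of parental cells, and MMP2 only in parental cells. Except for ADAMTS13, with 2 parental libraries above that level, and ADAMTS14, with 1, their entry to the test already required a difference. Of the 23 genes above the filter level in every library of both lines, 8 rose, 12 fell and 3 were not called, beside 63.2% called among the 12010 such genes in all, 28.6% higher and 34.6% lower. At 2-fold or more, 6 of the 23 rose and 6 fell, beside 797 and 803 of the 12010. Their median log2 fold change was −0.44, against −0.04 over those 12010 genes. In bulk RNA, fewer cells expressing a gene and less RNA per cell cannot be told apart.

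**Figure D2:**
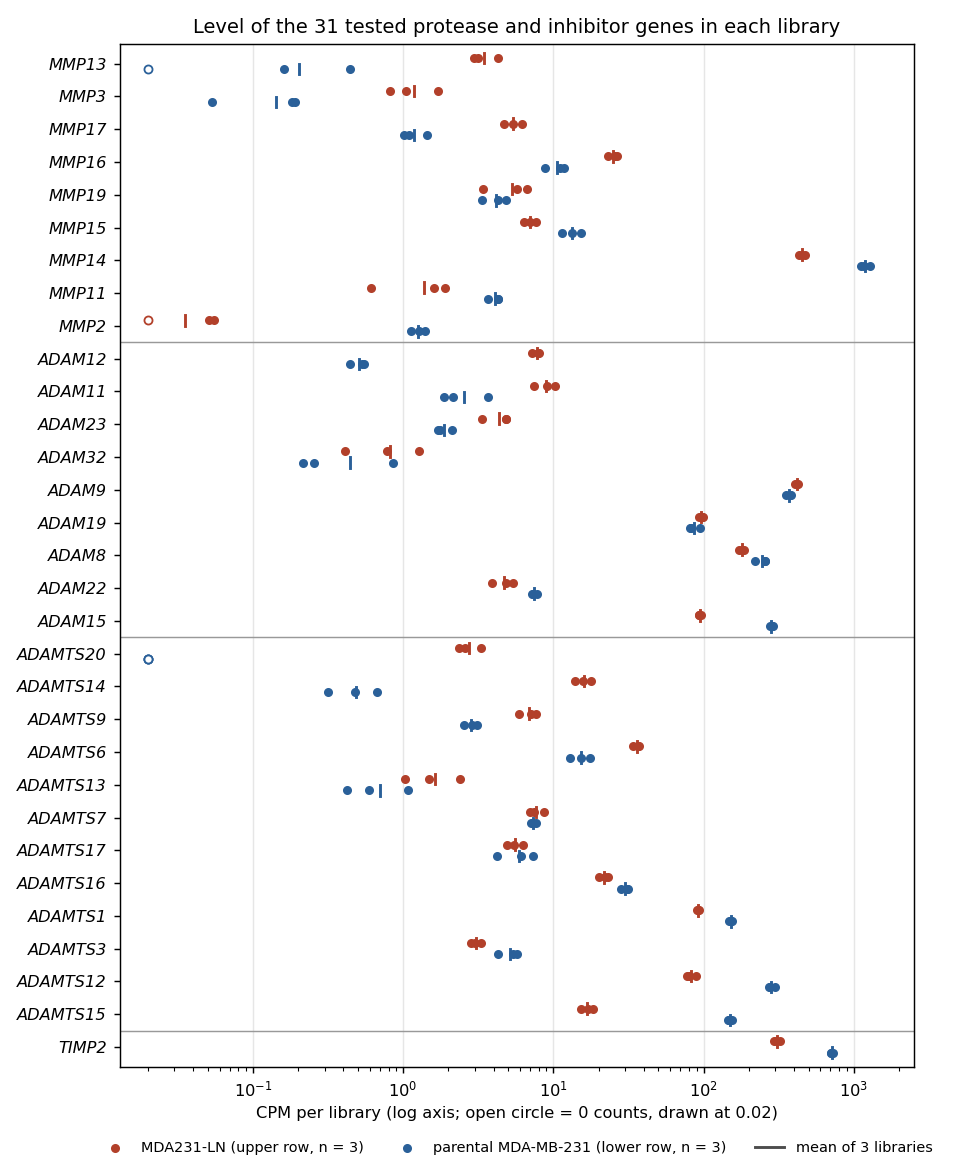
Level of each of the 31 tested genes in each library (CPM, log scale, 1 point per library), with MDA231-LN in the upper row and parental cells in the lower row of each gene and open circles for 0 counts. ADAMTS14 and ADAM12 stand more than 10-fold apart, ADAMTS20 has no count in parental cells, and ADAM19 and ADAM9 lie almost on top of each other.

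Levels can be compared between genes only per length, and were taken as CPM per kilobase of exonic sequence that no other gene covers. On that scale MMP14 was the highest in both lines, at 101 ± 4.24 in MDA231-LN and 267 ± 18.3 in parental cells (SD, n = 3 each), followed by TIMP2 at 63.8 ± 3.03 and 147 ± 2.79. ADAM9 came next, at 60.3 ± 1.06 in MDA231-LN and 53.6 ± 2.37 in parental cells. In MDA231-LN the libraries of TIMP2 and ADAM9 met at 61.1, so their order is not separated there. ADAM8 (37.6 and 51.0) and ADAM15 (15.2 and 45.5) filled the next places in both lines. In parental cells the libraries of ADAM9 and ADAM8 overlapped, as did those of ADAM8 and ADAM15, so that order is not separated. ADAMTS15 took rank 12 in MDA231-LN and rank 7 in parental cells, ADAMTS14 rank 11 and rank 26, and ADAM12 rank 21 and rank 29. Because introns were counted, genes with long introns are overstated on this scale: per kilobase of gene span, TIMP2 took rank 5 in both lines and MMP14 kept rank 1. On that scale ADAM8 took rank 2 in MDA231-LN and rank 3 in parental cells, ADAM15 rank 4 and rank 2, and ADAM9 rank 6 and rank 7.

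Summed over the measured genes of a family, the MMPs came to 484, 504 and 517 CPM in MDA231-LN and 1209, 1319 and 1153 CPM in parental cells. Most of this was MMP14, which made up 89.96 ± 0.922% of the sum in MDA231-LN and 97.1 ± 0.0641% in parental cells. Without MMP14 the direction turned round: the other 18 measured MMP genes summed to 50.3 ± 3.69 CPM in MDA231-LN and 35.9 ± 2.87 CPM in parental cells, with no overlap of libraries. The ADAMTS genes summed to 294 ± 10.5 CPM in MDA231-LN and 652 ± 11.2 CPM in parental cells. The ADAM genes differed least of the families, at 815 ± 7.49 CPM and 996 ± 10.7 CPM. These sums weight the abundant genes, are not scaled by length and were not tested. They leave out the genes not measured, such as MMP1, so neither the share of MMP14 nor the sum without it describes all MMPs.

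**Figure D3:**
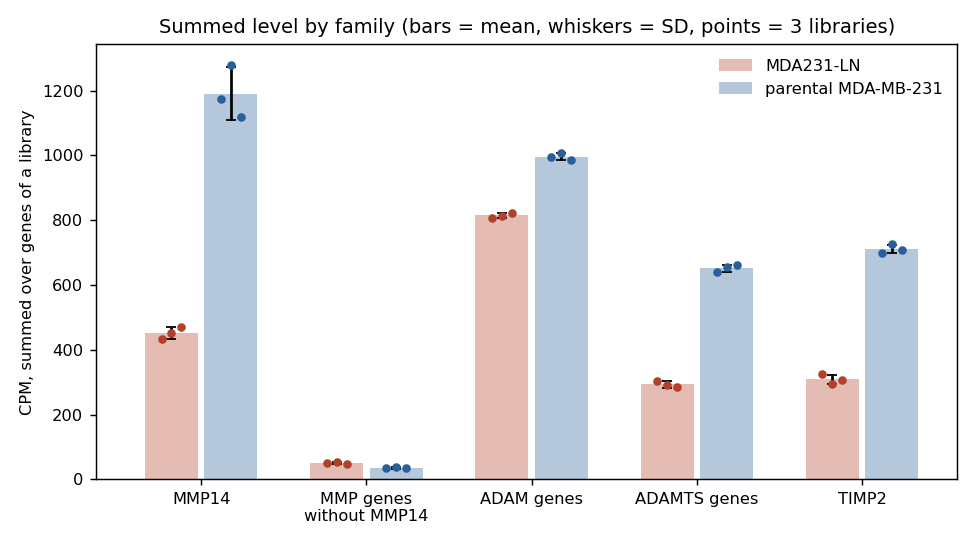
Level of MMP14, of the other MMP genes, of the ADAM and ADAMTS genes and of TIMP2, summed over the measured genes of each library (y axis, CPM); bars are means, whiskers SD and points the 3 libraries, with MDA231-LN left of parental cells. The MMP14, ADAM, ADAMTS and TIMP2 levels are lower in every MDA231-LN library, and the MMP sum without MMP14 is higher in every one.

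The membrane-anchored MMPs moved in both directions. MMP14 (MT1-MMP; chromosome 14, 22836560 to 22849041), the collagen-degrading enzyme that activates MMP2, had 433, 451 and 471 CPM in MDA231-LN and 1174, 1280.1 and 1119 CPM in parental cells. The lines did not overlap, and the level was 2.64-fold lower in MDA231-LN (log2 fold change −1.40 ± 0.06, SE; edgeR adjusted p = 1.83e-17). Its relative MMP15 (MT2-MMP) had 6.35, 7.04 and 7.71 CPM in MDA231-LN against 13.3, 15.3 and 11.5 CPM in parental cells. MMP15 also fell, by 0.92 on the log2 scale (SE 0.15; edgeR adjusted p = 9.97e-06), again without overlap.

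MMP16 (MT3-MMP), which like MMP14 can activate MMP2, went the other way, with 25.7, 26.6 and 22.97 CPM in MDA231-LN and 8.84, 11.2 and 11.8 CPM in parental cells. Each MDA231-LN library was above each parental library, and the level was 2.37-fold higher (log2 1.24 ± 0.12; edgeR adjusted p = 1.96e-09). MMP17 (MT4-MMP), which is held in the membrane by a lipid anchor, had 5.43, 6.15 and 4.68 CPM in MDA231-LN and 1.10, 1.01 and 1.45 CPM in parental cells. It rose 4.57-fold without overlap (log2 2.17 ± 0.28; edgeR adjusted p = 1.43e-07).

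MMP2, the gelatinase A that MMP14 activates, was near 0 in MDA231-LN, with 1, 1 and 0 counts, against 21, 22 and 21 counts in parental cells (1.27 ± 0.136 CPM). The lines did not overlap, and pooled counts were 35.9-fold lower in MDA231-LN, with an exact 95% counting interval of 9.53 to 303 (edgeR adjusted p = 3.12e-06). TIMP2 (chromosome 17, 78852977 to 78925387), the inhibitor that joins MMP14 to pro-MMP2, had 325, 296 and 306 CPM in MDA231-LN and 700.2, 726 and 708 CPM in parental cells. It fell 2.30-fold without overlap (log2 −1.20 ± 0.05; edgeR adjusted p = 1.30e-16). The CPM of MMP14 divided by that of TIMP2 was 1.33, 1.52 and 1.54 in MDA231-LN and 1.68, 1.76 and 1.58 in parental cells. The ratio was 1.14-fold lower in MDA231-LN, with the parental libraries all above, although the closest values of the lines differed by less than the spread within MDA231-LN; it was not tested.

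The secreted collagenases and stromelysins are clustered on chromosome 11, where 9 of the 65 genes lie within a 10-Mb window. In that window, 38 other genes were tested, with a median log2 fold change of −0.99, 4 higher and 28 lower. MMP13 (collagenase 3; 102942995 to 102955732), which cuts fibrillar collagens, had 58, 77 and 61 counts in MDA231-LN (3.46 CPM on average) against 0, 7 and 3 counts in parental cells (0.201 CPM). It rose, with the lines far apart in every library and a log2 fold change of 4.08 ± 0.52 (edgeR adjusted p = 1.38e-07). The size of that change depended on parental replicate 2, without which the log2 fold change was 5.23.

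MMP3 (stromelysin 1), which cleaves many matrix proteins and activates other MMPs, had 16, 19 and 33 counts in MDA231-LN and 3, 3 and 1 counts in parental cells. Counts were low but did not overlap, and MMP3 was 8.37-fold higher (log2 3.04 ± 0.63; edgeR adjusted p = 0.000165). Of its exon sequence, 22.4% is shared with WTAPP1. The neutrophil collagenase MMP8, below the filter, had 11, 8 and 2 counts in MDA231-LN and 1, 1 and 2 in parental cells, so the lines met at 2. The remaining genes of the cluster gave no values: MMP1 and MMP10 were not measured, and MMP7, MMP12, MMP20 and MMP27 were at 0.

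MMP11 (stromelysin 3, activated inside the cell by furin) lies elsewhere, on chromosome 22, and had 0.615, 1.61 and 1.90 CPM in MDA231-LN and 3.66, 4.31 and 4.28 CPM in parental cells. It fell 2.97-fold without overlap (log2 −1.57 ± 0.33; edgeR adjusted p = 0.000185). MMP19 had 6.71, 5.77 and 3.39 CPM in MDA231-LN and 4.88, 4.31 and 3.37 CPM in parental cells. These overlapped and were not called (edgeR adjusted p = 0.226), but were called higher when MDA231-LN replicate 3 was left out (edgeR adjusted p = 0.0405).

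Of the ADAMs with an active catalytic site, the largest change was in ADAM12. ADAM12 (meltrin alpha; chromosome 10, 126012381 to 126388477), a sheddase of heparin-binding EGF and a protease of insulin-like growth factor binding proteins, had 7.94, 7.26 and 8.02 CPM in MDA231-LN and 0.548, 0.444 and 0.535 CPM in parental cells. Each MDA231-LN library was far above each parental one, and ADAM12 was 15.2-fold higher (log2 3.90 ± 0.28; edgeR adjusted p = 3.60e-12). ADAM15 (chromosome 1, 155050566 to 155062775), whose disintegrin domain binds integrins, had 93.5, 96.9 and 94.0 CPM in MDA231-LN and 289, 284 and 276 CPM in parental cells. It fell 2.99-fold with tight replicates (log2 −1.58 ± 0.06; edgeR adjusted p = 1.65e-18). The 157 other tested genes in its 10-Mb window had a median log2 fold change of −0.97, with 130 of them lower and 11 higher.

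ADAM9, ADAM8 and ADAM19 moved less. ADAM9, a widely expressed sheddase, had 409, 419.7 and 423 CPM in MDA231-LN and 352, 375 and 384 CPM in parental cells. The lines did not overlap but stood apart by less than the range within parental cells, and the call (log2 0.17 ± 0.05; edgeR adjusted p = 0.00629) was lost without parental replicate 1 (edgeR adjusted p = 0.0626). ADAM8, known from leukocytes and from invasive breast cancer, had 180.3, 173 and 186 CPM in MDA231-LN and 256, 255 and 220.0 CPM in parental cells. It fell 1.36-fold without overlap (log2 −0.44 ± 0.06; edgeR adjusted p = 6.34e-07). ADAM19, a neuregulin sheddase, had 98.6, 97.7 and 93.5 CPM in MDA231-LN and 82.3, 81.5 and 94.5 CPM in parental cells. Parental replicate 3 lay inside the MDA231-LN range, and the call (log2 0.16 ± 0.07; edgeR adjusted p = 0.0368) was lost in 4 of the 6 fits that left out 1 library, those without MDA231-LN replicate 1 or 2 or parental replicate 1 or 2, with edgeR adjusted p-values of 0.112 to 0.163.

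ADAM11, ADAM22 and ADAM23 lack the catalytic zinc motif and serve as receptors for secreted LGI proteins in nerve cells. ADAM11 had 9.02, 7.43 and 10.2 CPM in MDA231-LN and 3.66, 2.16 and 1.87 CPM in parental cells, and ADAM23 had 4.82, 4.88 and 3.34 CPM against 2.13, 1.71 and 1.77 CPM. Both rose without overlap, ADAM11 by 3.47-fold (edgeR adjusted p = 1.61e-07) and ADAM23 by 2.32-fold (edgeR adjusted p = 0.000388). ADAM22 had 4.87, 5.38 and 3.91 CPM in MDA231-LN and 7.31, 7.73 and 7.17 CPM in parental cells. It fell 1.57-fold, also without overlap (log2 −0.65 ± 0.19; edgeR adjusted p = 0.00403). ADAM32 had 8, 14 and 25 counts in MDA231-LN and 14, 4 and 4 in parental cells. Its libraries overlapped and it was not called (edgeR adjusted p = 0.189), but without parental replicate 1 the log2 fold change was 1.79 rather than 0.91 (edgeR adjusted p = 0.0431).

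The procollagen N-propeptidases among the ADAMTS genes, which trim fibrillar procollagens, held the largest rise with counts in both lines. ADAMTS14 (chromosome 10, 70672506 to 70762441) had 17.9, 15.8 and 13.98 CPM in MDA231-LN and 0.670, 0.317 and 0.482 CPM in parental cells, from 350, 285 and 272 counts against 11, 5 and 9. The parental libraries were all near the filter level, and ADAMTS14 was 32.5-fold higher in MDA231-LN (log2 4.997 ± 0.24; edgeR adjusted p = 1.19e-15). Its relative ADAMTS3, which also processes the lymphangiogenic factor VEGF-C, had 3.28, 2.83 and 3.03 CPM in MDA231-LN and 5.42, 5.77 and 4.28 CPM in parental cells. ADAMTS3 fell 1.69-fold without overlap (log2 −0.75 ± 0.23; edgeR adjusted p = 0.00564). ADAMTS2, below the filter, had 0, 0 and 1 counts in MDA231-LN and 4, 2 and 4 in parental cells, a pooled ratio of 11.2-fold lower with an exact 95% counting interval of 1.59 to 486.

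The proteases of the aggrecan- and versican-cleaving group split as well. ADAMTS15 (chromosome 11, 130448645 to 130476645), a versican protease, had 18.3, 17.1 and 15.3 CPM in MDA231-LN and 149, 154 and 145 CPM in parental cells. The lines were far apart, with an 8.86-fold lower level in MDA231-LN (log2 −3.15 ± 0.08; edgeR adjusted p = 6.55e-22), the largest fall among genes with more than 3 counts in each line. The 17 other tested genes in its window had a median log2 fold change of −0.77. ADAMTS1, an aggrecan and versican protease that also binds VEGF, had 92.5, 90.2 and 93.7 CPM in MDA231-LN and 147, 155 and 153 CPM in parental cells. It fell 1.65-fold without overlap (log2 −0.72 ± 0.06; edgeR adjusted p = 4.27e-11), in a window with a median of 0.04.

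ADAMTS20 (chromosome 12, 43353866 to 43552203), a versican protease known from pigment cell migration in mice, had 46, 60 and 50 counts in MDA231-LN and none in any parental library. That is 2.36, 3.33 and 2.57 CPM against a limit of 0.059 CPM, at least 46.4-fold higher (edgeR adjusted p = 8.85e-09). Its closest relative ADAMTS9 had 7.68, 5.88 and 7.09 CPM in MDA231-LN and 3.11, 2.54 and 2.89 CPM in parental cells. ADAMTS9 rose 2.42-fold without overlap (log2 1.27 ± 0.21; edgeR adjusted p = 1.04e-05), and 11.2% of its exon sequence is shared with another gene. The aggrecanase ADAMTS5 had 4, 2 and 2 counts in MDA231-LN and none in parental cells, at least 2.38-fold higher, and 83.1% of its exon sequence is shared with another gene. ADAMTS4 had a single count, in a parental library.

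ADAMTS12 and ADAMTS7 form the pair known for cleaving cartilage oligomeric matrix protein (COMP). ADAMTS12 (chromosome 5, 33523535 to 33892019) had 89.6, 80.4 and 77.6 CPM in MDA231-LN and 272, 275 and 299.6 CPM in parental cells. It fell 3.42-fold without overlap (log2 −1.77 ± 0.06; edgeR adjusted p = 2.19e-18), while the 40 other genes in its window had a median log2 fold change of 0.35, 23 of them higher and 2 lower. ADAMTS7 averaged 7.73 ± 0.835 CPM in MDA231-LN and 7.36 ± 0.287 CPM in parental cells (SD, n = 3 each) and was not called (log2 0.07 ± 0.16; edgeR adjusted p = 0.727), with a sign that turned when MDA231-LN replicate 1 was left out. Its value is uncertain, because near-identical pseudogene copies exist and fragments with more than 1 alignment were not counted.

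ADAMTS6, which acts on fibrillin microfibrils, had 37.3, 36.4 and 34.1 CPM in MDA231-LN and 15.3, 17.7 and 13.0 CPM in parental cells. It rose 2.35-fold without overlap (log2 1.23 ± 0.11; edgeR adjusted p = 1.96e-10) in a window where 26 of 35 other genes were lower and 2 higher. ADAMTS16, a fibronectin-cleaving protease, had 20.1, 22.95 and 22.1 CPM in MDA231-LN and 31.1, 31.3 and 28.2 CPM in parental cells. It fell 1.39-fold (log2 −0.48 ± 0.10; edgeR adjusted p = 0.000148) in a window where 32 of 40 other genes were higher and 3 lower. ADAMTS13, which cuts von Willebrand factor in blood, had 1.49, 2.38 and 1.03 CPM in MDA231-LN and 0.427, 1.08 and 0.589 CPM in parental cells. Its libraries overlapped, and the call (edgeR adjusted p = 0.0250) was lost in 4 of the 6 fits without 1 library, those without MDA231-LN replicate 1 or 2 or parental replicate 1 or 3, with edgeR adjusted p-values of 0.0501 to 0.201. ADAMTS17 averaged 5.58 ± 0.705 CPM in MDA231-LN and 5.89 ± 1.54 CPM in parental cells and was not called (log2 −0.08; edgeR adjusted p = 0.752), and its sign turned under upper-quartile scaling.

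Across the 27 genes called, the sign was that of the median of the other genes in the same 10-Mb window for 10 and the opposite for 17. The same split over all called genes was not computed. Some of these medians were close to 0, such as 0.014 for TIMP2 and −0.028 for ADAM22, where their sign carries little weight. No conclusion is drawn from the split. The windows with medians beyond 0.5 in size held ADAM15, ADAM23, ADAMTS6, ADAMTS7, ADAMTS9, ADAMTS15, ADAMTS16, MMP3 and MMP13. Of these, ADAM15, ADAM23 and ADAMTS15 moved in the direction of their window, and ADAMTS7 was not called. The part of regional shifts such as a difference in copy number in these changes was not tested.

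**Figure D4:**
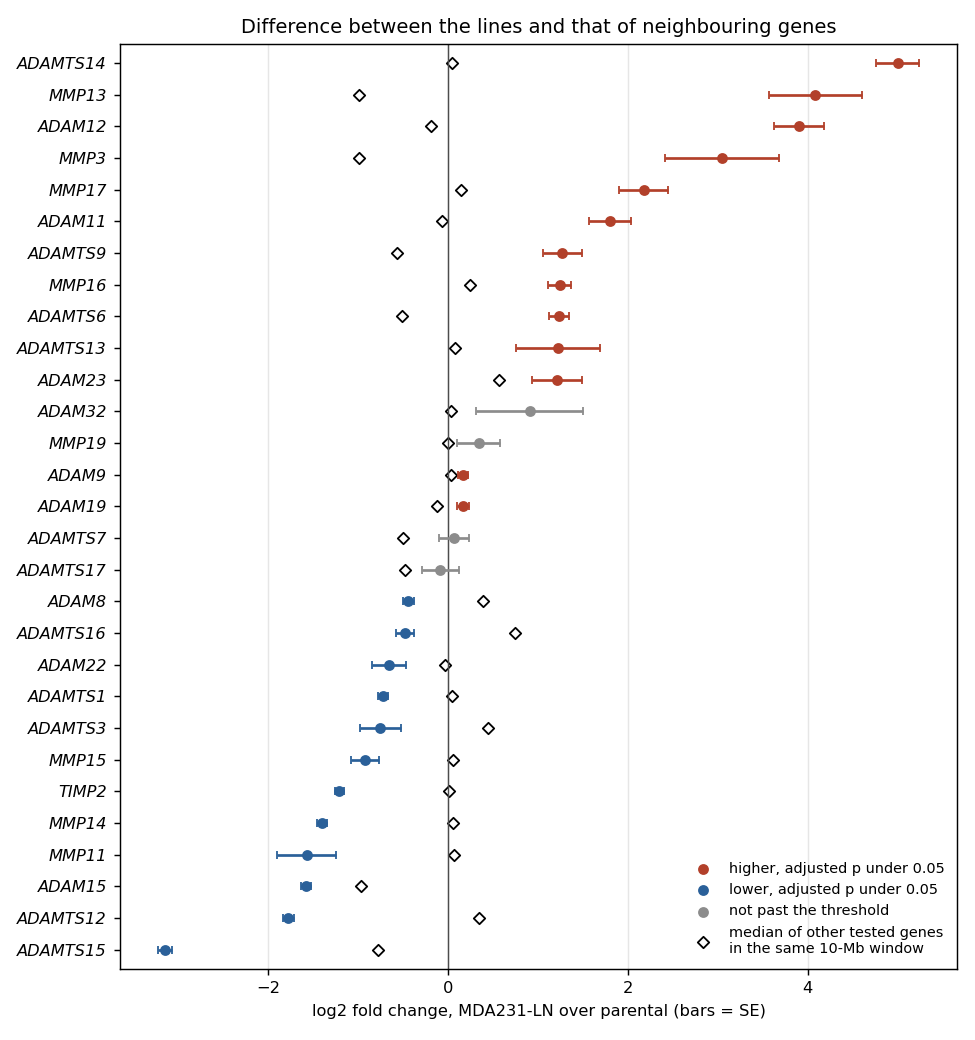
Log2 fold change of 29 tested genes (MDA231-LN over parental, point with SE) beside the median log2 fold change of the other tested genes in the same 10-Mb window. ADAMTS20 and MMP2 are left out because 1 line had 0 to 3 counts. ADAM15 lies beyond a window median of −0.97, and MMP13 and MMP3 lie far above one of −0.99.

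Promoter sequence was at hand in RefSeq (GRCh38.p14) for 36 of the 65 genes and 17 of the 31 tested. The 250 bases before the transcription start are shown for the 2 genes among these that rose most with counts in both lines (ADAMTS14, ADAM12) and for 3 abundant genes that fell (MMP14, ADAMTS12, ADAM15), on the strand of the gene, 5′ to 3′. Capitals mark a GC box (GGGCGG or its complement CCGCCC, the Sp1-type site) or a match to TGANTCA on either strand. TGANTCA, with any base at N, is a loose pattern for the AP-1 site, the element through which many MMP promoters respond to growth factors. The windows are chr10:70672256-70672505 (plus strand) for ADAMTS14, chr10:126388478-126388727 (minus) for ADAM12, chr14:22836335-22836584 (plus) for MMP14, chr5:33891991-33892240 (minus) for ADAMTS12 and chr1:155051066-155051315 (plus) for ADAM15. For MMP14, ADAMTS12 and ADAM15 the RefSeq start lies inside the gene span over which fragments were counted.
ADAMTS14: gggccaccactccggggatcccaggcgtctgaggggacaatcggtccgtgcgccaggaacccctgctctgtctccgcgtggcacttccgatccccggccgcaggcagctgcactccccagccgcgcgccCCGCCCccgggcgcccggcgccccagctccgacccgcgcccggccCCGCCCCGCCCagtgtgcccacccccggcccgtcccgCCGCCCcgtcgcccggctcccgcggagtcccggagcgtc
ADAM12: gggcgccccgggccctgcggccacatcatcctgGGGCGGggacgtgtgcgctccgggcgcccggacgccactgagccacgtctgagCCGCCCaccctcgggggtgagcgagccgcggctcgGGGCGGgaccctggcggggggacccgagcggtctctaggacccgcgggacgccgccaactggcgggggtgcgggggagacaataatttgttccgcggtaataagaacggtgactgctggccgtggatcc
MMP14: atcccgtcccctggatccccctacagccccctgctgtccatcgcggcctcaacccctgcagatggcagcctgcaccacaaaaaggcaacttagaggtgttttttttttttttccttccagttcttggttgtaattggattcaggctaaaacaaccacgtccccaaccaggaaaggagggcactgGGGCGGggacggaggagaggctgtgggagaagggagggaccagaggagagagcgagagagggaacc
ADAMTS12: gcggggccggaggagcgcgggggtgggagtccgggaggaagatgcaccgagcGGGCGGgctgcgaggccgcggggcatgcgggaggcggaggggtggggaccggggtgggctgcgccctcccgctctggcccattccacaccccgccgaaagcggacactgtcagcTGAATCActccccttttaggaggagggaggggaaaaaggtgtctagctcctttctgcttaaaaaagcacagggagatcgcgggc
ADAM15: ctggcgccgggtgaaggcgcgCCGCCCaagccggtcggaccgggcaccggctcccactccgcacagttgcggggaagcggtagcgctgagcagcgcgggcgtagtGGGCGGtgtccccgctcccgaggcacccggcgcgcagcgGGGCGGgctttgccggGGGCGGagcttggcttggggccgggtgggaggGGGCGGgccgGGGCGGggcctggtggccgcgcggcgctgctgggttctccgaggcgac
ADAM15 has 6 GC boxes and a GC content of 79.6%, ADAMTS14 has 4 and 80.4%, ADAM12 has 3 and 73.6%, and MMP14 and ADAMTS12 have 1 each and 56.8% and 68.4%. ADAMTS12 is the only one of the 17 tested genes with a TGANTCA match in this window, 84 bases before its start and with A at the open base. MMP11, MMP14 and MMP15 are the only tested MMPs among the 17. MMP2, MMP3, MMP13, MMP16, MMP17 and MMP19 had no promoter sequence at hand and were not searched, nor were MMP1 and MMP9.

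The sequence GGGCGG on either strand was in 15 of the 17 tested genes' windows, 5 of 7 that rose and 8 of 8 that fell, beside 66.7% of the windows of all tested genes and 42.3% of 27305 human promoters. TGANTCA was in 4 of the 36 genes' windows (ADAMTS12, MMP7, MMP10 and MMP20), beside 6.60% of all promoters and 4.15% of those of tested genes. TATAAA on either strand was in 7 of the 36 and in none of the 17 tested, beside 11.1% of all promoters and 5.68% of those of tested genes. MMP7, MMP10 and MMP20 of the chromosome 11 cluster carry both TGANTCA and TATAAA. By their letters, matches of different motifs cannot overlap. A match of letters is not a shown binding site.

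Proteins that act on these enzymes moved in both directions too. Of 15 activators and regulators listed, 12 were tested, of which 5 rose and 4 fell, 75% called beside 62.8% of all genes, with a median log2 fold change of 0.02. PCSK6 and PCSK5, furin-like convertases that cut the prodomains of MMPs and ADAMs, rose most. PCSK6 had 16.2, 17.2 and 17.9 CPM in MDA231-LN and 0.609, 0.444 and 0.535 CPM in parental cells, and PCSK5 averaged 29.5 ± 1.98 CPM and 3.08 ± 0.926 CPM. PCSK6 passed the filter through MDA231-LN, with 1 parental library above its level, and shares 38.9% of its exon sequence with another gene. The libraries did not overlap for either, with log2 fold changes of 4.99 ± 0.22 (edgeR adjusted p = 1.41e-16) and 3.27 ± 0.16 (edgeR adjusted p = 1.24e-15). FURIN, the main convertase, averaged 130.8 ± 9.31 CPM in MDA231-LN and 130.9 ± 0.876 CPM in parental cells and was not called (edgeR adjusted p = 0.993; named here after its value was seen). PCSK7 fell 2.16-fold. The surface proteoglycan SDC1, which binds pro-MMP7, fell 2.30-fold, the protease inhibitor SERPINE2 rose 2.53-fold, and BSG (EMMPRIN, named for inducing MMPs in neighbouring stromal cells) rose 1.27-fold. RECK, a membrane-anchored inhibitor of MMP14, MMP2 and MMP9, had 8.76, 9.20 and 7.56 CPM in MDA231-LN and 14.5, 16.2 and 10.97 CPM in parental cells and fell by 0.70 on the log2 scale (edgeR adjusted p = 0.000302; also named after its value was seen).

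Of 19 matrix substrates listed, 10 were tested, of which 4 rose and 5 fell, beside 62.8% of all genes called (median log2 fold change −0.06). COL3A1, FBN2 and VWF among them were above the filter level in 1 line only. VWF, named after its value was seen, had 13 counts in MDA231-LN and 37 in parental cells (edgeR adjusted p = 0.0406). Among the fits without 1 library, VWF was called lower only without MDA231-LN replicate 3. In the other fits its edgeR adjusted p was 0.0627 to 0.203. HSPG2, the basement membrane proteoglycan perlecan, had 24.8, 24.1 and 18.8 CPM in MDA231-LN and 145, 123 and 135 CPM in parental cells. Every MDA231-LN library was far below, at a 5.95-fold lower level (edgeR adjusted p = 9.87e-19). The basement membrane collagens COL4A1 and COL4A2 fell 1.91-fold and 1.51-fold. Fibronectin (FN1) had 520, 515 and 482 CPM in MDA231-LN and 195, 180.1 and 225 CPM in parental cells, and rose 2.53-fold (edgeR adjusted p = 1.25e-15). THBS1 rose 1.96-fold, and 79.2% of its exon sequence is shared with another gene. COL3A1, the chain of the fibrillar type III collagen, had 88 counts in MDA231-LN and 1 in parental cells, in replicate 2, a ratio of 78.5 with an exact 95% counting interval of 13.7 to 3136. The proteoglycan substrates ACAN, VCAN, BGN, DCN and NCAN were below the filter, and TNC and BCAN were not measured.

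Of 9 ADAMTS-like proteins and near relatives, which lack a protease domain or stand apart from the families above, 6 were tested, of which 1 rose and 2 fell, 50% called beside 62.8% of all genes (median −0.24). THSD4 fell 1.97-fold to 25.9 ± 0.824 CPM in MDA231-LN, against 50.9 ± 3.86 CPM in parental cells, and ADAMTSL4 fell 2.74-fold and shares 78.7% of its exon sequence with another gene. PAPLN (papilin) had 4.10, 3.49 and 3.75 CPM in MDA231-LN and 1.65, 0.507 and 0.428 CPM in parental cells. It rose by 2.14 on the log2 scale, and by 2.999 without parental replicate 1, the highest parental library. PAPLN passed the filter through MDA231-LN, and parental replicate 1 was the only parental library above the filter level. ADAMTSL1, ADAMTSL3 and ADAMTSL5 were not called. Of 8 astacins and pappalysins, another branch of the metzincins, 4 were tested. Of these, 3 rose and 1 fell, 100% called beside 62.8% of all genes (median 1.35). PAPPA2 and TLL2 were below the filter level in every parental library, so that their entry to the test already required a difference. The median includes both. BMP1, the procollagen C-proteinase, fell 1.66-fold, at 29.4 ± 0.664 CPM in MDA231-LN and 48.9 ± 1.24 CPM in parental cells. PAPPA, a protease of insulin-like growth factor binding proteins as ADAM12 is, rose 2.61-fold, at 17.7 ± 0.945 CPM and 6.80 ± 1.67 CPM. PAPPA2 had 1.69, 3.10 and 1.80 CPM in MDA231-LN and 0.183, 0.127 and 0.0535 CPM in parental cells and rose as well (edgeR adjusted p = 7.58e-07). TLL2 rose 2.57-fold at under 1 CPM (edgeR adjusted p = 0.0378), a call lost in 4 of the 6 fits without 1 library, those without MDA231-LN replicate 2 or 3 or parental replicate 1 or 2 (edgeR adjusted p of 0.102 to 0.127).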

How the data were processed

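Bulk RNA-seq of 2 cell lines was used, 3 libraries each, grouped by the labelled line. The deposited table gives raw counts for 61541 genes. Per the file headers, featureCounts 2.0.1 counted fragments over whole gene bodies of Ensembl release 105, unstranded, leaving out multi-mapping and multi-overlapping fragments. STAR, DESeq2 and GRCh38 are named without versions in the submitters' processing notes. Symbols were found for 61369 genes (99.7%). Exons for the share inside another gene came from GENCODE release 29. Library totals of 16461578 to 19171017 fragments set the precision. Genes were filtered with filterByExpr (minimum count 10) and tested with edgeR 4.0.16 (R 4.3.3), TMM scaling and the quasi-likelihood test, MDA231-LN over parental, with Benjamini-Hochberg adjustment over all 14176 genes, and the code was tested on simulated data. CPM values use TMM-scaled library sizes. Against 0 counts a fold is a lower bound on 3 counts over the 3 libraries of the line, and with 1 to 3 counts an exact 95% interval is given. Both cover counting error only, since fragments without molecular identifiers are not independent molecules. No pair of libraries was a duplicate (chi-square per degree of freedom at least 3.86 within a line). Every tested member was named. Of the other lists, up to 6 genes with the smallest adjusted p were named, and others are marked. Members and lists were chosen with earlier results of these data known. Alternatives were TMM against other scalings, filters, limma, DESeq2 1.42.0, the replicate block, a 1.5-fold threshold and leaving out each library. Part of the leukocyte marker list is not reported here.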

Additional observations from a re-analysis of the deposited data

How the results depend on the processing

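Under the alternatives tried, 11 to 15 of the tested members rose and 9 to 14 fell. Tested against a 1.5-fold change with edgeR's glmTreat, 1935 genes rose and 1534 fell in MDA231-LN over all genes, against 4482 and 4422, since that test asks for a larger change, and 11 members rose and 9 fell. ADAM8, ADAM9, ADAM19, ADAM22, ADAMTS3, ADAMTS13 and ADAMTS16 lost their calls there. The sign of ADAMTS17, which was not called, turned under upper-quartile scaling (log2 0.0285) and without MDA231-LN replicate 1 (0.00341) or parental replicate 1 (0.0914), within a range of −0.271 to 0.0914 over the fits that left out 1 library. That of ADAMTS7 turned without MDA231-LN replicate 1 (−0.0178, the lowest of −0.0178 to 0.134). The cause was not tested. The median log2 fold change over all genes was 0.13 with upper-quartile scaling, against 0.02, and 60.05% of calls were higher, against 50.3%. With a replicate block, 13 members rose and 13 fell (4325 and 4266 over all genes), and ADAM19 lost its call (adjusted p = 0.0503). Same-numbered libraries did not deviate together (r of 0.00997, −0.0716 and −0.138). These deviations were taken from the mean of only 3 libraries per line, so they cannot exclude that same-numbered libraries were handled together. The block changed no other member's call. With DESeq2, ADAM19 and ADAMTS13 lost their calls (adjusted p = 0.0544 and 0.0634) and MMP25 gained one (0.0131). MMP25 (0.00871) and MMP9 (0.0208) gained calls with no filter, MMP9 without MDA231-LN replicate 1 (0.0235) or parental replicate 3 (0.000806), and ADAMTS8 without MDA231-LN replicate 2 (0.0211) or parental replicate 1 (0.033) or 2 (0.0304). MMP3 was not tested with a filter of 1 CPM. Counts of members and of all genes without 1 library each stayed within 1.5 times, at 4128 to 4532 genes higher and 4128 to 4381 lower. Depth limits MMP2, MMP3, MMP9, MMP13 and the genes below the filter, where a few counts set the size of a fold.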
